A study of Mus musculus with 18 samples.

Results

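Angptl4, lipoprotein lipase and a set of related genes were followed in AML12 cells exposed to pemafibrate. The members were fixed by name as Angptl4, Angptl2, Angptl6, Lpl, Lipc, Lmf1 and Vldlr, 7 of the 35551 genes listed in the deposited tables. AML12 is an immortalized mouse hepatocyte line, here synchronized in its circadian rhythm, and pemafibrate (Pema) is a drug that acts selectively on PPARα, the nuclear receptor of fatty acid breakdown. The treated groups received Pema, and DMSO, the vehicle, was the control, over 1 of 3 windows: T0 to T24 (24 h of exposure, the reference schedule), T14 to T20 (6 h, standing for day) and T24 to T30 (6 h, standing for night). There were 3 poly(A) RNA libraries in every one of 6 groups, 18 in all, and libraries of the same replicate number were paired within a window. No dose was given in the labels, and all groups share 1 cell line.

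Lipoprotein lipase cuts the triglycerides of circulating lipoproteins at the vessel wall and so releases fatty acids to the tissue. It is folded and released from the endoplasmic reticulum with the help of lipase maturation factor, it is carried to and held at the capillary surface by an endothelial anchor, and it is inactivated by ANGPTL4, a secreted protein that fasting and PPAR agonists raise in liver and fat. The VLDL receptor binds triglyceride-rich lipoproteins, and in the adult liver hepatic lipase, not lipoprotein lipase, is the main secreted lipase.

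Values are normalized signal per gene as deposited, scaled by the authors within each window. A gene was called measured where its mean over the 6 libraries of a window reached 10, and 1 read was worth 0.985 to 1.02 units of signal in these libraries. Of the 7 members, 5 were measured in every window (Angptl4, Lpl, Lmf1, Vldlr and Angptl6) and 2 in none (Angptl2 and Lipc). Of 8 hepatocyte markers, 7 were measured, with summed signal of 156214 to 199691 in Pema libraries and 154074 to 201331 in DMSO libraries. Apoa1 was the exception. These sums mostly follow Krt8, Trf and Krt18, with means of 61364, 52085 and 51975 over T0 to T24. In that window Alb had a mean of 4356 and Ttr of 2830. Of the adipocyte list, 0 of 5 genes were measured in any window, with sums of 3.99 to 10.9 in Pema libraries and 1.99 to 11.9 in DMSO libraries. Of the macrophage list 3 of 5 genes were measured in every window, with sums of 213 to 349 (Pema) and 254 to 367 (DMSO). Of the stellate cell or fibroblast list 3 of 5 were measured, with sums of 113 to 185 (Pema) and 98.1 to 194 (DMSO). Normalized totals per library ran from 31461977 to 33884634. With 1 read worth 0.985 to 1.02 units, these totals lie near the number of reads assigned to genes. The depth as sequenced was not given.

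Angptl4, the inhibitor of lipoprotein lipase (ENSMUSG00000002289), was higher with Pema in 9 of 9 pairs, as were 0.483% of the 13258 genes tested over all windows. Within single windows 12.7%, 14.6% and 14.9% of genes were higher in every pair. Over T0 to T24 its signal was 2149, 1675 and 1571 in the Pema libraries of replicates 1, 2 and 3, against 1320, 1054 and 1043 in the DMSO libraries. The lowest Pema library thus lay above the highest DMSO library, as for 1.61% of the 13325 genes tested. The means were 1798 ± 308 with Pema and 1139 ± 157 with DMSO (SD, n = 3 each). As in any bulk RNA sample, a level per cell and the share of cells that hold the RNA cannot be told apart. In the paired limma fit Angptl4 rose by 0.65 ± 0.05 on the log2 scale (SE), a fold of 1.57, with adjusted p = 0.0103. In that window 0.0525% of all genes passed as higher, and Angptl4 ranked 4 of 13325 by p. Without the pair of replicate 2 the call was lost (limma, adjusted p = 0.0543). It was also lost without pairing (adjusted p = 1.00), without the variance trend (0.329) and without the filter on low genes (0.243).

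Over T14 to T20 Angptl4 stood at 2058, 2050 and 1848 in the Pema libraries, against 1350, 1498 and 1420 in the DMSO libraries. The groups again did not overlap, as for 1.82% of the 13210 genes tested. The means were 1985 ± 119 with Pema and 1423 ± 73.7 with DMSO (SD, n = 3 each). The log2 fold change was 0.48 ± 0.05, a fold of 1.39, and it missed the threshold in the paired limma fit with adjusted p = 0.0561, where 0.0303% of genes passed as higher and 0.00757% as lower. With robust variance estimates it passed (limma, adjusted p = 0.0412), and so it did in a fit shared by all 18 libraries (0.00282).

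Over T24 to T30 Angptl4 had 1979, 2039 and 1834 in the Pema libraries, against 1263, 1336 and 1290 in the DMSO libraries. All Pema libraries lay above all DMSO libraries, as for 2.08% of the 13231 genes tested. The means were 1951 ± 105 with Pema and 1297 ± 37.0 with DMSO (SD, n = 3 each). Angptl4 rose by 0.59 ± 0.05, a fold of 1.503, with adjusted p = 0.0213 in limma, where 0.0378% of genes passed as higher. The call was lost without the pair of replicate 2 (limma, adjusted p = 0.237) or of replicate 3 (0.0532). It was lost too without pairing (adjusted p = 0.922), without the variance trend (0.369) and without the filter (0.446).

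**Figure D1:**
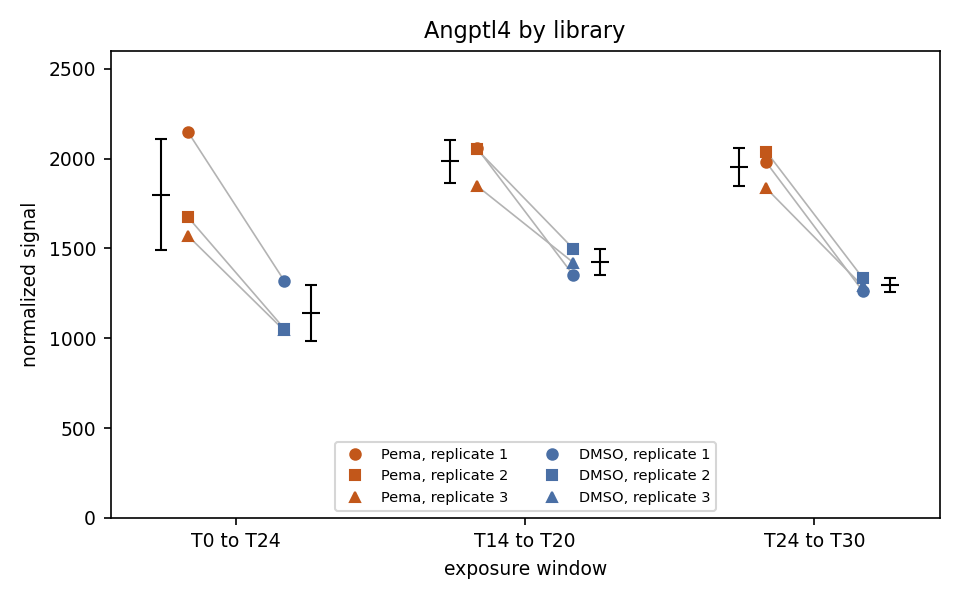
Normalized signal of Angptl4 in each of the 18 libraries by exposure window, Pema left and DMSO right, with grey lines joining libraries of the same replicate number and black bars giving mean ± SD (n = 3). In every window the 3 Pema libraries lie above the 3 DMSO libraries, with a lowest Pema value of 1571 and a highest DMSO value of 1498.

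When the 3 windows were fitted together with a single Pema effect, blocked by pair (9 pairs), Angptl4 rose by 0.57 ± 0.03 (95% interval 0.50 to 0.65), a fold of 1.49. Its adjusted p was 1.44e-06 in limma, rank 2 of 13258 genes, while 0.181% of all genes passed as higher. By size of the rise it ranked 57 of 13258. The call held in all 13 alternative settings, with adjusted p between 8.07e-07 and 0.00113. Only 4 genes, 0.0302% of those tested, had Pema libraries wholly above DMSO libraries in each of the 3 windows: Angptl4 and, from the PPARα target list, Pdk4, Plin2 and Acot1.

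Within pairs the log2 difference of Angptl4 between Pema and DMSO was 0.70, 0.67 and 0.59 for replicates 1, 2 and 3 in the T0 to T24 window. In the T14 to T20 window it was 0.61, 0.45 and 0.38, and 0.65, 0.61 and 0.51 over T24 to T30. The pair of replicate 1 gave the largest difference and that of replicate 3 the smallest in each window. For none of the 3 contrasts between windows did the effect on Angptl4 pass the test of the difference, and no gene passed there (0% of 13258 in each direction in limma, where 654, 1057 and 1225 genes had p below 0.05 before adjustment). The T0 to T24 effect minus the T14 to T20 effect was 0.17 (95% interval 0.02 to 0.33, adjusted p = 0.985), and minus the T24 to T30 effect it was 0.07 (−0.09 to 0.22, adjusted p = 0.847). The T14 to T20 effect minus the T24 to T30 effect was −0.11 (−0.26 to 0.05, adjusted p = 0.650).

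The DMSO level of Angptl4 was 1139 ± 157 for T0 to T24, against 1423 ± 73.7 for T14 to T20 and 1297 ± 37.0 for T24 to T30 (SD, n = 3 each). The T14 to T20 values lay above those of both other windows, and the values of T24 to T30 overlapped with those of T0 to T24. The windows were normalized separately, so these levels were not tested against each other.

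Lpl, the lipase itself (ENSMUSG00000015568), was measured in all windows and its groups overlapped in each of them. Over T0 to T24 it had 446, 384 and 515 in the Pema libraries, against 401, 399 and 519 in the DMSO libraries. Over T14 to T20 it had 386, 374 and 489 with Pema, against 392, 356 and 528 with DMSO. In both windows replicate 3 was the highest library of either treatment, and the spread between replicate numbers was wider than any difference within a pair. Over T24 to T30 Lpl had 504, 335 and 590 with Pema, against 574, 422 and 613 with DMSO, so that every Pema library lay below its DMSO partner, as for 15.6% of all genes in that window.

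The log2 fold change of Lpl was 0.03 ± 0.08, −0.02 ± 0.07 and −0.19 ± 0.08 in the order of these windows (SE, paired fit). None passed in limma, with adjusted p = 0.989, 0.957 and 0.661. The sign turned without replicate 1 over T0 to T24 (−0.03) and without replicate 3 in the T14 to T20 window (0.02), and without replicate 2 the T24 to T30 value was −0.12. Over all windows it was −0.06 ± 0.05 (95% interval −0.16 to 0.04, adjusted p = 0.892). The T0 to T24 effect minus the T24 to T30 effect was 0.22 (−0.01 to 0.45, adjusted p = 0.619).

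Lmf1, the lipase maturation factor (ENSMUSG00000002279), differed more between replicate numbers than between treatments. Its signal was 667, 781 and 639 with Pema, against 726, 818 and 648 with DMSO, in the T0 to T24 window. In the T14 to T20 window it was 703, 841 and 658 with Pema, against 678, 791 and 679 with DMSO. Over T24 to T30 it was 668, 819 and 656 with Pema, against 678, 775 and 638 with DMSO. Replicate 2 held the highest value in all 6 groups. The log2 fold change over all windows was −0.00 ± 0.03 (95% interval −0.07 to 0.07, limma, adjusted p = 0.998), and 4 of 9 pairs were higher with Pema. Its sign turned without replicate 1 (0.01) or replicate 3 (0.00).

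Vldlr, which encodes the VLDL receptor (ENSMUSG00000024924), was higher with Pema in 7 of 9 pairs by small amounts. Over T0 to T24 it had 1860, 1878 and 1875 in the Pema libraries, against 1925, 1758 and 1857 in the DMSO libraries. Over T14 to T20 it had 1820, 2471 and 2207 with Pema, against 1845, 2301 and 2174 with DMSO. Over T24 to T30 it had 1895, 2471 and 2427 with Pema, against 1751, 2367 and 2221 with DMSO, each pair being higher with Pema, as for 14.9% of genes. Groups overlapped in every window, and in the 6 h windows replicate 1 was the lowest library of each group. The log2 fold change was 0.02 ± 0.05, 0.03 ± 0.04 and 0.10 ± 0.04 in the order of these windows, with adjusted p = 0.987, 0.855 and 0.661 in limma. Without replicate 2 the T0 to T24 value turned to −0.02. Over all windows it was 0.05 ± 0.02 (95% interval −0.00 to 0.10, adjusted p = 0.777). The share of all genes that were higher in 7 of 9 pairs was not counted.

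Angptl6, an angiopoietin-like protein secreted by the liver (ENSMUSG00000038742), was measured at a low level. It had 32.6, 41.7 and 37.6 with Pema, against 34.7, 44.8 and 28.5 with DMSO, in the T0 to T24 window. In the T14 to T20 window it had 39.8, 49.96 and 47.5 with Pema, against 49.9, 68.1 and 47.4 with DMSO, and in the T24 to T30 window 38.8, 51.7 and 36.0 with Pema, against 43.4, 60.5 and 47.4 with DMSO. Values were lower with Pema in 7 of 9 pairs, and the share of all genes with that count was not computed. The groups overlapped in every window, and no window passed (limma, adjusted p = 0.991, 0.764 and 0.758). The T0 to T24 estimate was 0.07 ± 0.22, and −0.09 without replicate 3. The log2 fold change over all windows was −0.15 ± 0.10 (95% interval −0.37 to 0.08, adjusted p = 0.877). In the GENCODE M21 annotation its exons share 265 bases with A230050P20Rik on the opposite strand. The libraries keep strand, but no source used here says whether the counting did. If it did not, reads within that shared stretch of the 1582-base Angptl6 transcript cannot be assigned to one gene.

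**Figure D2:**
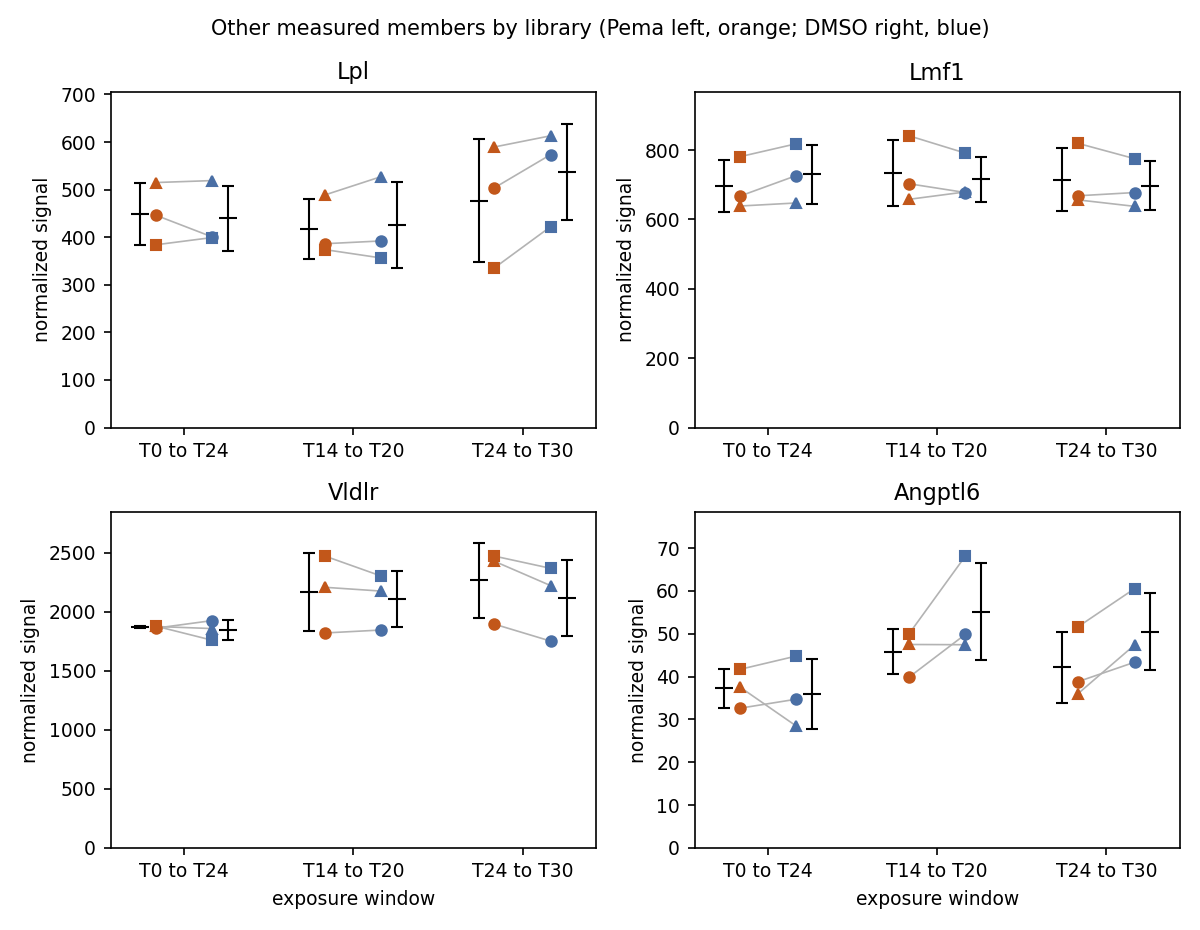
Normalized signal of Lpl, Lmf1, Vldlr and Angptl6 in each library by window (Pema left, DMSO right; circles, squares and triangles mark replicates 1, 2 and 3; grey lines join pairs, black bars are mean ± SD, n = 3). Pema and DMSO libraries overlap in all 4 panels and all 3 windows. Replicate 2 is the highest Lmf1 library in all 6 groups.

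**Figure D3:**
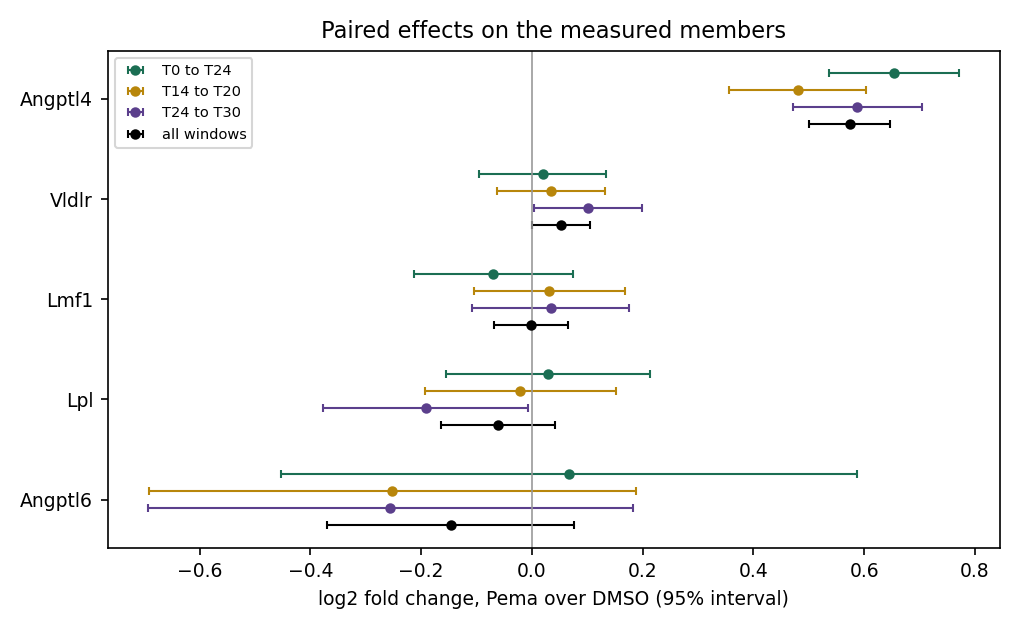
Log2 fold change of Pema over DMSO for the 5 measured members in each window and over all windows, from the paired fits, with 95% intervals. The Angptl4 estimates lie between 0.48 and 0.65 in the 3 windows, and those of the other members lie between −0.26 and 0.10.

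Angptl2, a secreted angiopoietin-like protein known for its role in inflammation (ENSMUSG00000004105), and Lipc, hepatic lipase (ENSMUSG00000032207), stayed below the minimum level in every window. Angptl2 ranged from 3.27 to 7.43 in Pema libraries and from 2.86 to 6.72 in DMSO libraries over all windows, with 6 of 9 pairs higher with Pema. Lipc was listed at 0 in all 3 Pema libraries over T0 to T24, against 1 of 3 DMSO libraries at 0 and a highest DMSO value of 0.993. Its values reached 2.30 with Pema and 8.41 with DMSO over T14 to T20, and 1.00 with Pema and 2.98 with DMSO over T24 to T30. These are a few reads at most, so no fold is given for either gene. For Lipc, 8 of 9 pairs were lower with Pema and 1 pair was tied at 0. The share of all genes with such pair counts was not computed for either gene.

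**Figure D4:**
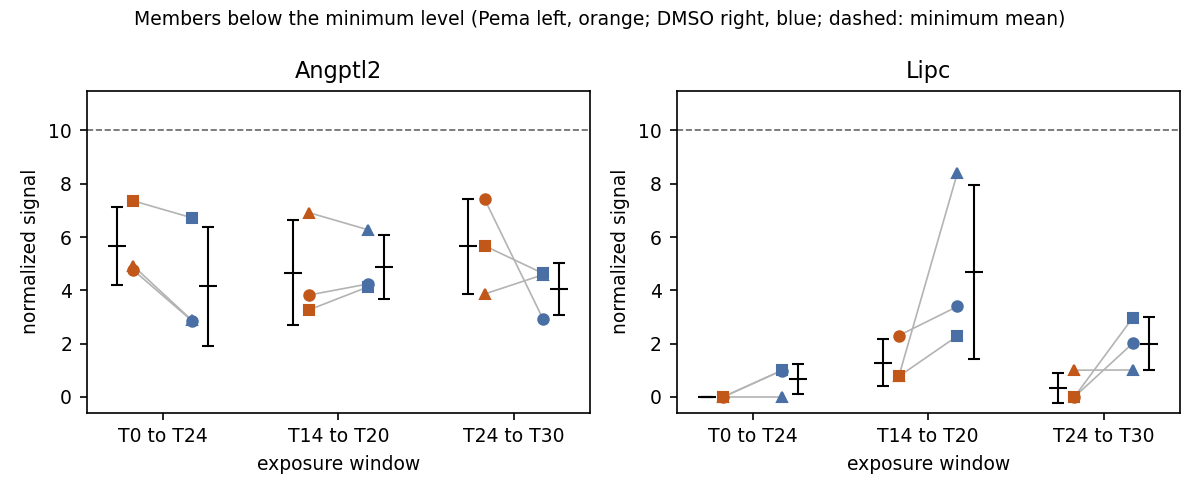
Normalized signal of Angptl2 and Lipc in each library (Pema left, DMSO right; symbols, lines and bars as for the other members), with the minimum mean of 10 as a dashed line. All libraries lie under that line, and the highest Lipc value, 8.41, belongs to 1 DMSO library of T14 to T20.

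Per length of transcript the members could be set beside each other. Signal was divided by the length of the longest protein-coding transcript in GENCODE M21, which is not known to be the annotation behind the tables. Over T0 to T24 Angptl4 then had 544 ± 93.3 per kb with Pema and 344 ± 47.5 with DMSO (SD, n = 3 each). Lmf1 followed with 347 ± 37.5 per kb with Pema and 365 ± 42.7 with DMSO. In DMSO cells of that window Angptl4 and Lmf1 thus lay within their spread of each other, while in Pema cells every Angptl4 value lay above every Lmf1 value. Over T14 to T20 Angptl4 had 600 ± 36.0 per kb with Pema and 430 ± 22.3 with DMSO, against 367 ± 47.7 and 358 ± 32.5 for Lmf1 with Pema and DMSO, so Angptl4 lay above Lmf1 in DMSO cells too. Over T24 to T30 the 2 genes overlapped in DMSO cells and not in Pema cells. Vldlr came next over T0 to T24, with 235 ± 1.18 per kb with Pema and 232 ± 10.5 with DMSO. In that same window Lpl had 109 ± 15.9 per kb with Pema and 107 ± 16.7 with DMSO, and Angptl6 had 23.6 ± 2.87 with Pema and 22.8 ± 5.20 with DMSO. The annotated coding transcripts of Vldlr run from 454 to 7971 bases, so its place depends on the isoform made.

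The libraries' pattern of Angptl4 was most like those of Cpt1a, Pdk4, Acot1, Acot2 and Creb3l3. The measure was Pearson's r of log2 values over the 18 libraries after the mean of each window had been subtracted, over 13257 other genes. It was 0.95 for Cpt1a, 0.94 for Pdk4, 0.88 for both Acot1 and Acot2, and 0.87 for Creb3l3. Among the members r with Angptl4 was −0.26 for Angptl6, −0.26 for Lpl, 0.06 for Lmf1 and 0.22 for Vldlr. The difference between Pema and DMSO was not subtracted, so genes that rise with Pema share a high r through that rise. Cpt1a, Pdk4, Acot1, Acot2 and Creb3l3 each passed as higher in the fit over all windows, so their r is no separate finding. All libraries share treatments and replicate numbers, so r describes these 18 libraries only.

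Of 19 PPARα target genes, 14 were measured in every window, and 5, 3 and 2 of them rose in the 3 windows, in the order above (paired limma), where 0.0525%, 0.0303% and 0.0378% of all genes passed as higher. Over all windows 8 rose, against 0.181% of all genes, and 0 fell, with a median log2 fold change of 0.25, against −0.00 for all 13258 genes. Cpt1a, the gatekeeper of mitochondrial fatty acid import, rose by 0.31 ± 0.02 there, and Plin2, a coat protein of lipid droplets, by 0.37 ± 0.02. Acot1, a cytosolic thioesterase, rose by 0.73 ± 0.04 and Pdk4, an inhibitory kinase of pyruvate dehydrogenase, by 1.17 ± 0.11. The list was assembled with these data known and is not independent evidence of its direction.

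The wider pathway list held 29 names of other angiopoietin-like proteins, apolipoproteins, lipoprotein receptors, proprotein convertases and lipase partners. Of these 28 were matched in the tables and 19 were measured in every window. Over all windows 0 of the 19 rose and 0 fell in limma (background 0.181% higher and 0.00754% lower), with 1 of them below 0.05 before adjustment (6.45% of all genes), 11 positive (against 47.6% of all genes) and 8 negative, and a median of 0.02. Within windows 0 of 19, 0 of 19 and 0 of 20 passed. Higher with Pema in every pair were 4 of 19, 0 of 19 and 4 of 20 genes in the 3 windows, against 12.7%, 14.6% and 14.9% of all genes. Lower in every pair were 2 of 19, 0 of 19 and 1 of 20, against 12.9%, 16% and 15.6%. The smallest p belonged to Lrp1, a large clearance receptor for lipoprotein remnants, at −0.16 ± 0.06 (adjusted p = 0.70). Lrp8, an ApoE receptor, was at 0.08 ± 0.04 (0.827), Sel1l, an endoplasmic reticulum factor needed for maturation of the lipase, at 0.04 ± 0.02 (0.850), and Furin, a convertase that cleaves ANGPTL4, at 0.02 ± 0.02 (0.903).

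Gpihbp1, the endothelial anchor of lipoprotein lipase, was listed at 0 in all 18 libraries. It is named here for this value and not for its rank.

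**Figure D5:**
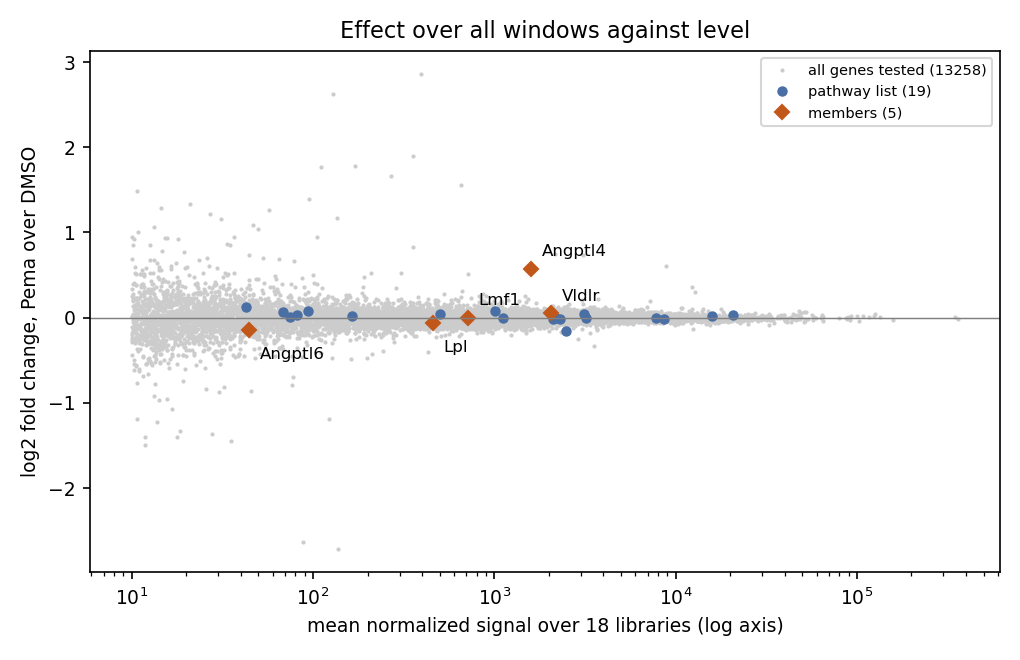
Log2 fold change of Pema over DMSO in the fit over all windows against the mean normalized signal (log axis) of 13258 genes in grey, with the 19 measured genes of the pathway list in blue and the 5 measured members in orange. Angptl4 stands at 0.57, and the other 4 members lie between −0.15 and 0.05.

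The RefSeq promoter table (GRCm38.p6, 250 bases before to 50 after a start) held 7 entries for 5 members, Angptl2, Angptl6, Lipc, Lmf1 and Vldlr. Angptl4 and Lpl are named only. The hexamer AGGTCA bound by nuclear receptors, its direct repeat with any 1 base between the copies (the DR1 element, so each match also counts as a hexamer) and the clock-factor motif CACGTG were searched on both strands. They occur in 16.3%, 0.0396% and 7.15% of all 32851 promoters. A single member entry held any of them, 1 start of Lipc at chr9:70934759-70935058 on the minus strand, and it is shown for that reason, with the hexamers in capitals. They begin 88 and 76 bases before the start, the second on the opposite strand.
Lipc: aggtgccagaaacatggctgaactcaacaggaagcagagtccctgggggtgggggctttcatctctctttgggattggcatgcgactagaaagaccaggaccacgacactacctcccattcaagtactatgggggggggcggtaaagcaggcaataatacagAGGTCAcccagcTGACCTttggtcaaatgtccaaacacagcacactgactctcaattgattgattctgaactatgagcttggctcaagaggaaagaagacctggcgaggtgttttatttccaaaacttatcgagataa
Lipc was below the minimum level in these cells, as given above, and a match of letters is a description of the sequence only.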

How the data were processed

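Poly(A) RNA of AML12 cells was made into dUTP-stranded libraries, per the labels' protocols. The authors deposited 1 table of normalized signal per window, per the file headers: estimated counts per gene, in columns named as salmon output files are, scaled within the window. For the scaling method, build and annotation: not given in the sources used here. Within each table the median log ratio of a library to the gene means was the same in all 6 libraries. Of the low values (up to 8 reads), 56.5% to 74.4% were whole multiples of 1 read within 0.05, so reads were not recovered and no count test was run. Symbols were matched for 35181 of 35551 gene IDs.

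Genes with a mean of at least 10 were tested as log2(value + 1) with limma 3.58.1 (R 4.3.3; lmFit, eBayes with variance trend), two-sided, with Benjamini-Hochberg adjustment over all genes and a threshold of 0.05. The log2 (value + 1) scale understates the change of low genes. The replicate number was a block, from the numbers in the titles. Deviations from group means correlated at 0.31 to 0.62 between Pema and DMSO libraries sharing a number (9 pairs), and at −0.42 to −0.11 otherwise. As the deviations are centred within each group, the negative sign of the latter follows largely from the former and is not separate support for pairing. The labels do not say whether replicates were separate cultures, so p-values measure only how far these libraries differ, perhaps technically. In the fit over all windows, pairs of 1 number in different windows were taken as independent. Alternatives were no block, other pseudocounts, filters, variance settings and scalings, and each replicate left out. The fits were also run on simulated data with set changes, and the share of these recovered is not given here. Fold changes beside tests are on the log2(value + 1) scale.

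Members and gene lists were chosen with earlier results of these data known. All members are named. Of the pathway list, genes that passed and up to 4 of the smallest p over all windows are named. Of the targets, Acot1, Plin2, Cpt1a and Pdk4 are named, and of the genes most like Angptl4 the first 5 by r. Apob and Gpihbp1 were named after their values were seen. The name Sortl1 of the pathway list matched no gene. Marker lists had 7 of 8 (hepatocyte), 0 of 5 (adipocyte), 1 of 5 (endothelial), 0 of 4 (muscle), 3 of 5 (macrophage) and 3 of 5 (stellate cell or fibroblast) genes measured in every window.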

Additional observations from a re-analysis of the deposited data

Results flagged for a closer look

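Apob, the structural apolipoprotein of VLDL on the pathway list, was lower with Pema in 3 of 3 pairs over T0 to T24 and higher in 3 of 3 pairs over T24 to T30, which is why it is listed. The median log2 difference of the pairs was −0.0574 over T0 to T24 and 0.0725 over T24 to T30. The difference of these effects was −0.14 (95% interval −0.24 to −0.03) in the paired limma fit and did not pass over all genes (adjusted p = 0.595). It was looked for in all measured members and pathway genes, and no other gene met the condition. Of all genes, 12.9% were lower in every pair over T0 to T24 and 14.9% higher in every pair over T24 to T30. The share of all genes that turn between windows in this way was not counted, so Apob is listed as a description only.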

How the results depend on the processing

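The direction of Angptl4 held in every alternative run for the 3 windows and for all windows together. Without pairing, without the filter and without the variance trend its estimates were 0.65 over T0 to T24 and 0.59 over T24 to T30, and neither passed. With each replicate left out they ranged from 0.63 to 0.69 and from 0.56 to 0.63, and over T14 to T20 from 0.42 to 0.53. Over T14 to T20 the estimate of 0.48 passed with robust variances and in the fit shared by all libraries. Adjusted p over the alternatives ran from 1.45e-04 to 1.00, from 0.00282 to 1.00 and from 8.63e-04 to 0.922 in the 3 windows. Other members passed in no alternative.

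Counts of genes higher were 7, 4 and 5 in the 3 windows. They were 0 in each without pairing, without the filter or without the variance trend, and 13, 9 and 8 in the shared fit with the replicate block. Robust variances gave 7 over T14 to T20. Leaving out a replicate gave 4 to 10, 3 to 6 and 1 to 6. Counts of genes lower were 0, 1 and 0. The shared fit gave 1 in the T0 to T24 window. In the T14 to T20 window the count was 0 without pairing, with pseudocount 5, without the filter, without the variance trend, with upper quartile rescaling and in the shared fit. Leaving out a replicate gave 0 to 2, 0 to 2 and 0 to 1. Over all windows 24 rose and 1 fell: 2 and 0 without pairing, 12 and 0 with windows averaged within each replicate number (the replicate block), 12 to 17 and 0 with a replicate left out, and 2 lower without the variance trend. Differences between windows had 0 calls, and 0 to 1 in each contrast with a replicate left out. The pairing changed no call of another member. Before the start alone, 14% of promoters held AGGTCA and 6.02% held CACGTG. Rescaling by median log ratio changed nothing, since the tables already have that scaling. The cause of these changes was not tested. Angptl2 and Lipc had only a few reads and the depth as sequenced was not given, which limits what can be said of them.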

Other observations

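When low genes were kept in the fit over all windows, Lipc had an unadjusted p of 0.00218 in limma and did not pass over 24124 genes (adjusted p = 0.541), and its highest value in any library was 8.41. In that fit 1296 of 24124 genes had p below 0.05 before adjustment, where 1206 are expected without any effect.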
